A study of Homo sapiens with 12 samples.

Results

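The AP-1 and immediate early genes examined here are FOS, FOSB, FOSL1, FOSL2, JUN, JUNB, EGR1, ATF3, MYC and IER3. They were chosen by name, with earlier results of these data known, and all 10 were found among the 20434 genes with a count. RNA was sequenced from WI-38 cells, a line of human lung fibroblasts, in 12 flasks. Cells without TGF-β were collected on day 1 (D1) and day 20 (D20), and cells given 2 ng/mL TGF-β on the same days (D1+ TGF-β and D20+ TGF-β). Each condition had 3 flasks, picked by the authors from those cultured for the quantity and quality of their RNA. D1 flasks were at passage 2 to 3 and D20 flasks at passage 5 to 6, per the labels, so that time under TGF-β, time in culture and passage cannot be told apart between the days. The study's methods state that all D20 flasks of a treatment were seeded from 1 flask of day 1, so the flask of origin and the treatment cannot be told apart at D20. The p-values rest on the spread between flasks of a condition, estimated over all conditions together. At D20 these are sister flasks, so a difference between flasks of origin is not part of that spread. Medium was also replaced in the untreated flasks when treatment began, at confluence. The D20 flasks were reseeded so as to be nearly confluent by day 20, and medium with or without TGF-β was changed every 2 days. Density and medium changes thus cannot be told apart from the day either. Library totals ranged from 8674488 to 18286197 counts.

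FOS, FOSB, FOSL1 and FOSL2 proteins pair with JUN or JUNB, or with ATF partners, to form AP-1, a dimer that binds DNA through a basic leucine zipper. Immediate early genes are switched on by serum, growth factors or stress without new protein synthesis, mostly through MAP kinases, serum response factor and ETS factors, and the RNAs of many of them, FOS and EGR1 among them, are gone again within hours. In fibroblasts AP-1 is known for its part in proliferation, matrix protease expression and, together with SMAD proteins, the transcription response to TGF-β. The earliest cells here had been under TGF-β for a day, so the first hours of such a response were not sampled.

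The cell type label was checked against marker genes. VIM, the fibroblast intermediate filament gene, was between 5849.6 and 7874 cpm (a gene's share of its library's counts, corrected for composition) in all 12 flasks. The other fibroblast markers, COL1A1, COL1A2, COL3A1, PDGFRB and THY1, were at or above 105 cpm in every flask. The epithelial and endothelial markers EPCAM, CDH1, SFTPC, PECAM1, CDH5 and VWF lay between 0 and 1.55 cpm, as did the leukocyte markers PTPRC and CD3E, while CD68, also a lysosomal gene, was between 38.1 and 62.6 cpm. The contractile marker ACTA2 was higher in D1+ TGF-β than in D1 (log2 fold change 2.07 ± 0.17, adjusted p = 2.28e-06). Its log2 fold change in D20+ TGF-β vs D20 was 0.13 ± 0.17 (adjusted p = 0.554). Fold changes are given throughout with their standard error and a p from edgeR's quasi-likelihood test on counts, adjusted by Benjamini-Hochberg over the 9490 genes that reached 10 cpm in 6 or more libraries. Genes with an adjusted p under 0.01 are called. The contractile markers ACTA2, TAGLN and CNN1 were all called higher in D1+ TGF-β vs D1, beside 13.4% of all genes tested. In D20+ TGF-β vs D20, 0 of the 3 were called higher and 1 lower, beside 27.5%. CNN1 was at 53.1, 53.3 and 53.5 cpm in D20 and at 36.9, 36.3 and 45.0 in D20+ TGF-β. Of the 6 fibroblast markers, 1 was called higher and 1 lower in that comparison.

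The libraries D1 replicate 2 and D20+ TGF-β replicate 3 stood apart. On the scale of log2 cpm with a prior count of 2, which is used for all counts of this kind, 55 of the 9490 genes in D1 replicate 2 were more than 2-fold above both other flasks and 27 more than 2-fold below them. In D20+ TGF-β replicate 3 these counts were 12 and 76, and in each of the other 10 libraries they came to 1 or 0 in all. Several of the genes described here were among those that differed. Where leaving out either or both changed a call of one of the 10 genes, a value without them is given.

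Promoter sequence is shown for EGR1 and JUNB, because each held a match to a searched motif in a window that ends right before the annotated start of the gene. The RefSeq promoter table (GRCh38.p14) held 7 of the 10 genes, and the 250 bases before the start were searched on both strands. EGR1 held 2 CArG boxes (CC, then 6 of A or T, then GG), the letters that serum response factor binds, starting 105 and 83 bases before the start of the gene. A CArG box was found in 1.16% of the 35116 promoters. The window lies at chr5:137800918-137801167 on the plus strand of GRCh37, and the boxes are in capitals.
EGR1: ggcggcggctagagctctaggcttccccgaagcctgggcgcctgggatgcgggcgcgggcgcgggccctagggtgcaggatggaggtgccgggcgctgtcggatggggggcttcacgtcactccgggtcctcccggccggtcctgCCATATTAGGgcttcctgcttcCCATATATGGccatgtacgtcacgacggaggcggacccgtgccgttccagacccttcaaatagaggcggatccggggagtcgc
JUNB held 1 ETS core, GGAAGT, a motif present in 19.5% of promoters, starting 54 bases before the start. It lies on the opposite strand, so that the capitals read ACTTCC. The window is chr19:12902050-12902299 on the plus strand of GRCh37.
JUNB: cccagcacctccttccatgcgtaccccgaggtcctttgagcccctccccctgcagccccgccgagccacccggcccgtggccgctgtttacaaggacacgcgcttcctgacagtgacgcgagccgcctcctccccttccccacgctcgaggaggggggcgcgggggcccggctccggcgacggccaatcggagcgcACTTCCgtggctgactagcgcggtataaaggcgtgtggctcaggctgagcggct
FOSB also held 1 ETS core, starting 85 bases before its start. The cyclic AMP response element TGACGTCA (1.65% of promoters), the AP-1 site TGACTCA (4.20%), the E-box CACGTG (6.34%) and the SMAD motifs GTCTAGAC (0.182%) and CAGACAGA (1.29%) had no exact match in the windows of the 7 genes.

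Per length of transcript, the genes fell into a high, a middle and a very low set. With cpm divided by the kilobases of the GENCODE canonical transcript (cpm per kb), FOSL1, IER3 and JUN took the first 3 places in all conditions. FOSL1 was highest in D1 at 98.6 ± 14.4 cpm per kb (SD, n = 3) and in D1+ TGF-β at 74.5 ± 2.3. In D20, JUN came first at 45.4 ± 4.1, ahead of IER3 at 32.9 ± 2.9 and FOSL1 at 32.8 ± 3.0, and the ranges of the last pair overlapped. In D20+ TGF-β, IER3 came first at 94.0 ± 47.6, above FOSL1 at 39.9 ± 5.1 and JUN at 36.6 ± 1.3, whose ranges overlapped. JUNB, MYC, EGR1, FOSL2 and ATF3 lay between 2.24 and 20.5 cpm per kb in their condition means, with JUNB first among them in 3 conditions. The ranges of JUNB and MYC overlapped in D1 and in D1+ TGF-β, and those of JUNB and EGR1 in D20+ TGF-β. FOS (0.193 to 1.12) and FOSB (0.112 to 0.263) were lowest in all 4 conditions.

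**Figure D1:**
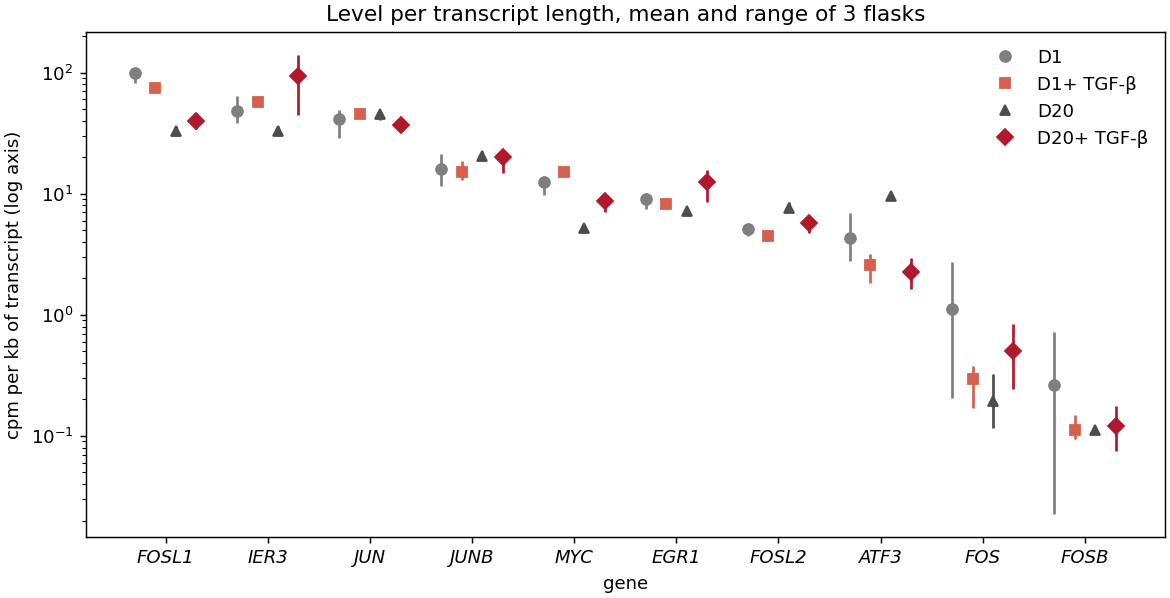
Level of each gene in cpm per kb of transcript (log axis) in the 4 conditions, as the mean of 3 flasks with the lowest and highest flask as the ends of the line. FOSL1, IER3 and JUN sit highest, and FOS and FOSB lie at or below 1.12 cpm per kb in every condition mean.

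Between conditions, none of the genes was called under TGF-β at day 1, and calls were made in the comparisons that involve D20. As whole flasks were sequenced, fewer cells with a transcript and less of it per cell cannot be told apart. In D1+ TGF-β vs D1, which asks for the early response, 0 of the 7 genes in the test were called, where 13.4% of all genes tested were, with 1 of the 7 at an unadjusted p under 0.05 and 1 called by DESeq2 (FOSL1 in both cases). In D20+ TGF-β vs D20, the response to long treatment, 3 of 7 rose (IER3, EGR1 and MYC) and 1 fell (FOSL2), beside 27.5% of all genes called. Between the treated groups (D20+ TGF-β against D1+ TGF-β), 0 rose and 2 fell (FOSL1 and MYC), beside 34.8%. In D20 vs D1, the change between the days without TGF-β, 1 rose (FOSL2) and 2 fell (FOSL1 and MYC), beside 36.4%. The TGF-β response differed between D20 and D1 for 1 of 7 (FOSL1), beside 10.4%. With so few genes, these shares were not set apart from the background by any test. The comparisons share their control flasks and are not independent of each other.

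The median log2 fold change of the 7 genes was -0.10 in D1+ TGF-β vs D1, 0.29 in D20+ TGF-β vs D20, 0.37 between the treated groups and -0.31 in D20 vs D1, where the medians of all genes tested were -0.02, 0.01, 0.01 and 0.01. The counts depended on single libraries. Without D1 replicate 2, the count in D1+ TGF-β vs D1 was 1 (FOSL1) and that between the treated groups was 4, and without D20+ TGF-β replicate 3 the latter was 5. Leaving out D20 replicate 1, 2 or 3 or D20+ TGF-β replicate 1 each gave 2 calls in D20+ TGF-β vs D20.

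**Figure D2:**
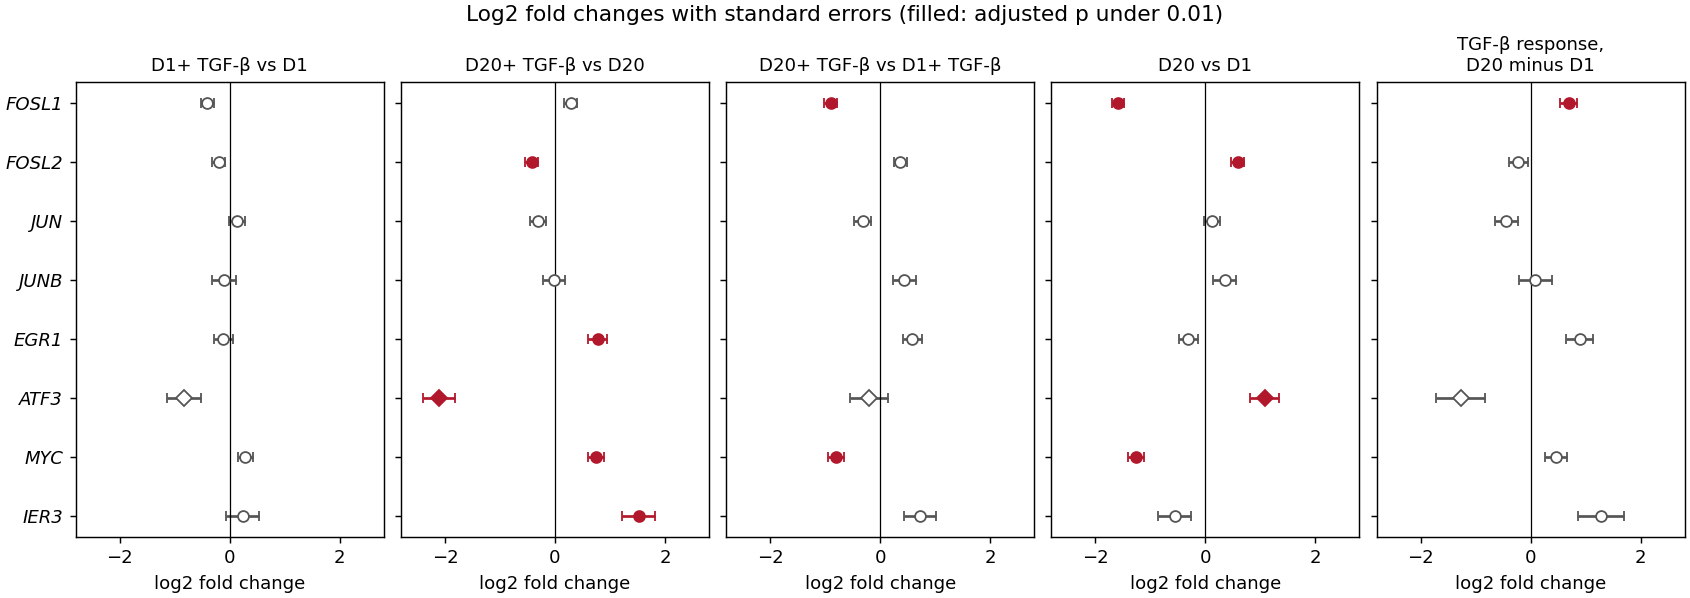
Log2 fold changes (x axis, first condition over second, with standard errors) of the 8 genes that could be tested, in the 4 comparisons and for the difference of the TGF-β responses, where filled points have an adjusted p under 0.01 and the diamonds of ATF3 come from the test with a lower expression filter. The D1+ TGF-β vs D1 panel holds 0 filled points, and IER3, EGR1 and MYC lie to the right of zero in D20+ TGF-β vs D20 while FOSL2 and ATF3 lie to the left.

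FOS, the first described AP-1 subunit and a classical marker of recent stimulation (chr14:75745529-75748933, plus strand, GRCh37), was counted only a few times in most flasks. Its counts were 5, 87 and 10 in D1, 6, 14 and 3 in D1+ TGF-β, 3, 9 and 4 in D20, and 31, 5 and 9 in D20+ TGF-β, for replicates 1, 2 and 3. Only D1 replicate 2 stood out, at 5.78 cpm, where the other 11 flasks lay between 0.245 and 1.77 cpm. FOSB (chr19:45971253-45978437, plus strand), which can stand in for FOS in the dimer, gave 1, 41 and 2 counts in D1, 3, 10 and 3 in D1+ TGF-β, 4, 6 and 7 in D20, and 5, 4 and 7 in D20+ TGF-β. The same flask was again the only one above 1 cpm, at 2.72. The whole of FOSB is overlapped by ERCC1 on the opposite strand, and whether counting used strand is not given in the sources used here. Both genes were too low for either expression filter and were not tested in the main fit. A fit to all 20434 genes called FOS lower in D20 than in D1 (log2 fold change -2.68, adjusted p = 0.00277), a value that includes the 87 counts of D1 replicate 2, without which D1 held 5 and 10 counts.

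FOSL1 encodes Fra-1, an AP-1 subunit known for its persistent expression in proliferating and motile cells (chr11:65659520-65668044, minus strand). It was measured at 180, 140 and 184 cpm in D1, 124, 125 and 131 in D1+ TGF-β, 61.2, 55.3 and 51.1 in D20, and 70.6, 58.2 and 75.0 in D20+ TGF-β. Every D20 flask, treated or not, was below every D1 flask. FOSL1 fell in D20 vs D1 by 3.01-fold (log2 fold change -1.59 ± 0.12, adjusted p = 2.63e-07) and between the treated groups by 1.86-fold (-0.90 ± 0.11, adjusted p = 3.92e-05). Both calls held in all 23 alternative settings. Under TGF-β at day 1 its log2 fold change was -0.40 ± 0.11 (adjusted p = 0.0178), with no overlap between the flasks. Without D1 replicate 2, the lowest D1 flask, it was -0.51 and called (adjusted p = 0.00126). At day 20 the log2 fold change was 0.29 ± 0.12 (adjusted p = 0.0634), and the flasks overlapped. The responses of the days differed by 0.69 ± 0.16 (adjusted p = 0.00842), a call that was lost in 10 of 22 alternatives (adjusted p 0.0150 to 0.0297), 9 of which left out 1 library, D20+ TGF-β replicate 3 among them (0.62, adjusted p = 0.0150).

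FOSL2 encodes Fra-2 (chr2:28615315-28640184, plus strand), a further partner of JUN proteins. It was measured at 38.6, 33.9 and 30.0 cpm in D1, 29.7, 29.2 and 30.5 in D1+ TGF-β, 47.6, 49.6 and 57.0 in D20, and 41.0, 42.3 and 31.5 in D20+ TGF-β. The untreated D20 flasks were higher than all other flasks. FOSL2 rose in D20 vs D1 by 1.51-fold (0.59 ± 0.12, adjusted p = 0.000887), the direction opposite to that of FOSL1, in all 23 alternatives. It fell in D20+ TGF-β vs D20 by 1.34-fold (-0.42 ± 0.12, adjusted p = 0.00998), and this call, next to the threshold, was lost in 14 of 23 alternatives. Without D20 replicate 3 the adjusted p was 0.0578 and without D20+ TGF-β replicate 3 it was 0.0347. Between the treated groups FOSL2 had a log2 fold change of 0.37 ± 0.12 (adjusted p = 0.0213), and 0.49 without that last library, which was called (adjusted p = 0.00218). The antisense gene FOSL2-AS1 overlaps 2233 bases of it.

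JUN, the main DNA-binding partner of the FOS proteins (chr1:59242517-59249720, minus strand), was measured at 161, 93.9 and 153 cpm in D1, 151, 149 and 145 in D1+ TGF-β, 133, 153 and 158 in D20, and 116, 124 and 117 in D20+ TGF-β. D1 replicate 2 was the lowest of all flasks, and the D20+ TGF-β flasks were below all others but that one. JUN was called in none of the comparisons, and a test over the 4 conditions gave an adjusted p of 0.191. Its log2 fold change in D20+ TGF-β vs D20 was -0.31 ± 0.15 (adjusted p = 0.111), and without D1 replicate 2, whose distance from its group enters the shared estimate of spread, it was -0.29 and called (adjusted p = 0.00253). Between the treated groups the values were -0.32 ± 0.15 (adjusted p = 0.0926) and, without that library, -0.32 (adjusted p = 0.00109). JUNB, a JUN homologue that can restrain JUN activity (chr19:12902300-12904129, plus strand), was measured at 27.7, 39.0 and 21.4 cpm in D1, 23.8, 25.0 and 34.2 in D1+ TGF-β, 34.0, 41.0 and 37.8 in D20, and 42.3, 41.7 and 27.3 in D20+ TGF-β. The flasks of all 4 conditions overlapped. JUNB was called in no comparison (adjusted p over the 4 conditions 0.132). The largest value was 0.44 ± 0.21 between the treated groups (adjusted p = 0.102). Without both libraries that stand apart it was 0.61 and called (adjusted p = 0.000403), as was the 0.61 of D20 vs D1 (adjusted p = 0.000611, against 0.35 ± 0.21 and 0.175 with them). HOOK2 overlaps all 1830 bases of JUNB on the opposite strand.

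**Figure D3:**
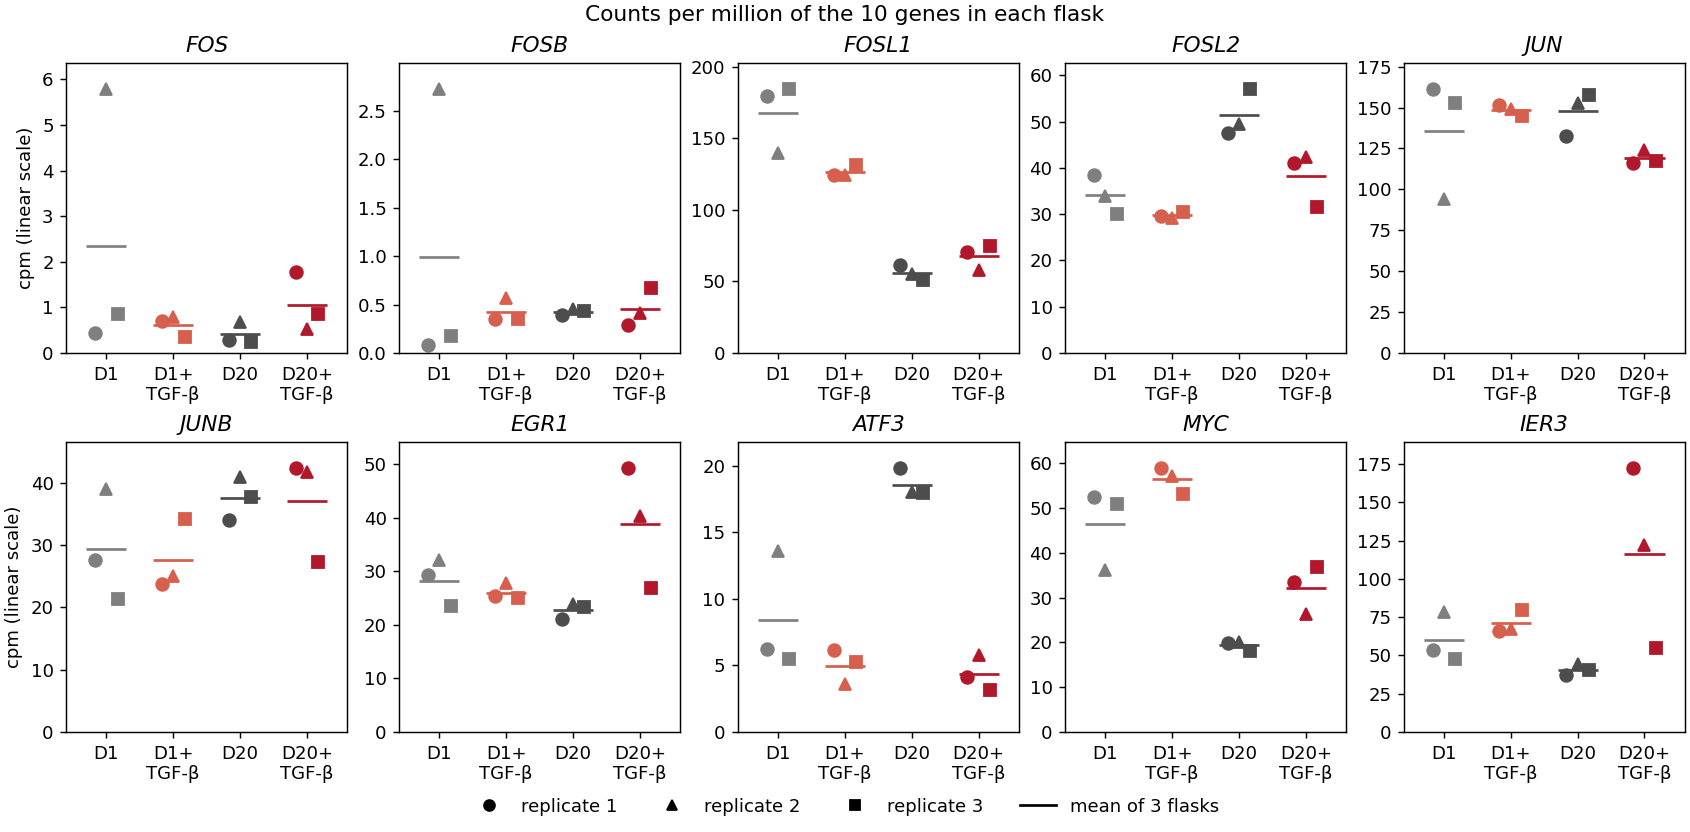
Level in cpm (linear axes starting at 0, one scale per gene) of the 10 genes in each flask, by condition, where the symbol gives the replicate and the line the mean of 3 flasks. FOS and FOSB are raised in D1 replicate 2 (5.78 and 2.72 cpm), FOSL1 and MYC are lower at D20 than at D1, ATF3 is highest in the 3 untreated D20 flasks, and D20+ TGF-β replicate 3 is the lowest of its group for IER3 and EGR1.

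ATF3, a stress-induced leucine zipper factor that acts with JUN proteins or as a repressor dimer (chr1:212738676-212794119, plus strand), had the largest fold change under TGF-β among the 8 genes tested. It was measured at 6.19, 13.6 and 5.45 cpm in D1, 6.15, 3.57 and 5.21 in D1+ TGF-β, 19.8, 18.0 and 17.9 in D20, and 4.12, 5.75 and 3.15 in D20+ TGF-β. The 3 untreated D20 flasks were above all others, and the D20+ TGF-β flasks overlapped with those of D1+ TGF-β. Since only 4 libraries reached 10 cpm, ATF3 was tested with edgeR's filterByExpr among 13768 genes. It fell in D20+ TGF-β vs D20 by 4.31-fold (-2.11 ± 0.30, adjusted p = 7.39e-05), in all 21 alternatives, where 24.4% of the genes of that fit were called. It rose in D20 vs D1 by 2.11-fold (1.08 ± 0.27, adjusted p = 0.00489, and 1.63 without D1 replicate 2), beside 31.6% of genes called, and the call was lost on leaving out D1 replicate 1 or 3 or any D20 flask (adjusted p 0.0142 to 0.0257). At day 1 the log2 fold change under TGF-β was -0.83 ± 0.31 (adjusted p = 0.0762, 10.9% of genes called), and -0.29 without D1 replicate 2 (adjusted p = 0.398). Between the treated groups it was -0.20 ± 0.34 (adjusted p = 0.670, 30.5% called). The difference of the responses was -1.27 ± 0.44 and not called (adjusted p = 0.0594, beside 8.04% of genes called). It was -1.81 and called without D1 replicate 2 (adjusted p = 0.000658).

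EGR1, a zinc finger factor induced through serum response factor and the ETS factors of the ELK group (chr5:137801168-137804992, plus strand), carries the CArG boxes shown above. It was measured at 29.2, 32.0 and 23.5 cpm in D1, 25.3, 27.8 and 25.0 in D1+ TGF-β, 21.1, 23.8 and 23.4 in D20, and 49.2, 40.4 and 26.9 in D20+ TGF-β. All treated D20 flasks were above all untreated D20 flasks, although replicate 3 was near the level of the other conditions. EGR1 rose in D20+ TGF-β vs D20 by 1.71-fold (0.78 ± 0.17, adjusted p = 0.00291). The call was lost in 6 of 23 alternatives, with adjusted p up to 0.0172, which came without D20+ TGF-β replicate 1. Without replicate 3 of that group the value was 0.98 (adjusted p = 3.98e-05). At day 1 the log2 fold change under TGF-β was -0.11 ± 0.18 (adjusted p = 0.681). The difference of the responses was 0.89 ± 0.25 and not called (adjusted p = 0.0211). It was 1.09 and called without D20+ TGF-β replicate 3 (adjusted p = 0.000566). Between the treated groups the log2 fold change was 0.58 ± 0.17 (adjusted p = 0.0136). It was 0.78 without that library (adjusted p = 0.000174), and it was also called without D1 replicate 2 (0.58, adjusted p = 0.00925). The corepressor gene NAB1, whose product binds EGR1, rose in D20+ TGF-β vs D20 as well (0.78 ± 0.20, adjusted p = 0.00573). It was measured at 31.5, 35.3 and 31.6 cpm in D20 and 71.1, 61.0 and 36.4 in D20+ TGF-β, so replicate 3 was near the untreated level here too.

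IER3, an early response gene that modulates apoptosis (chr6:30710976-30712325, minus strand, in the MHC region), was measured at 53.4, 78.7 and 47.5 cpm in D1, 66.1, 67.1 and 79.6 in D1+ TGF-β, 37.3, 44.5 and 40.5 in D20, and 172, 122 and 54.8 in D20+ TGF-β. The treated D20 flasks were all above the untreated D20 flasks and were widely spread (116 ± 58.9 cpm, SD, n = 3), with replicate 3 at 0.373 times the mean of the other 2. IER3 rose in D20+ TGF-β vs D20 by 2.87-fold (1.52 ± 0.30, adjusted p = 0.00127), in all 23 alternatives, and by 1.85 on the log2 scale without D20+ TGF-β replicate 3 (adjusted p = 3.77e-06). Its log2 fold change was 0.24 ± 0.30 in D1+ TGF-β vs D1 (adjusted p = 0.603). It was 0.50 without D1 replicate 2 (adjusted p = 0.241), and 0.50 and called without both libraries that stand apart (adjusted p = 0.00385). The difference of the responses was 1.28 ± 0.42 and not called (adjusted p = 0.0456). It was 1.62 and called without D20+ TGF-β replicate 3 (adjusted p = 0.000490). For the treated groups of both days the values were 0.72 ± 0.29 (adjusted p = 0.0551) with that library and 1.06 (adjusted p = 0.000279) without it. The MHC region has alternate haplotype sequences in this build, and whether they were part of the authors' reference is not given in the sources used here.

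MYC, a helix-loop-helix factor that drives ribosome and nucleotide synthesis genes, was measured at 52.4, 36.2 and 51.0 cpm in D1, 58.9, 57.2 and 53.1 in D1+ TGF-β, 19.9, 20.0 and 18.1 in D20, and 33.5, 26.4 and 36.8 in D20+ TGF-β. Its flasks formed separate ranges in 4 steps, from D20 to D20+ TGF-β, D1 and D1+ TGF-β, except that D1 replicate 2 was below the highest D20+ TGF-β flask. MYC fell in D20 vs D1 by 2.41-fold (-1.27 ± 0.14, adjusted p = 9.49e-06) and between the treated groups by 1.75-fold (-0.80 ± 0.14, adjusted p = 0.000356). It rose in D20+ TGF-β vs D20 by 1.68-fold (0.74 ± 0.15, adjusted p = 0.00112). These 3 calls held in all 23 alternatives. Its log2 fold change in D1+ TGF-β vs D1 was 0.28 ± 0.14 (adjusted p = 0.147), and 0.14 without D1 replicate 2 (adjusted p = 0.354). The difference of the responses was 0.46 ± 0.20 (adjusted p = 0.115), and without D1 replicate 2 it was 0.63 (adjusted p = 0.00677).

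All 12 listed MYC target genes could be tested, and most of them moved with the day of culture. Between D20 and D1, 0 rose and 11 fell, where 36.4% of all genes tested were called, with a median log2 fold change of -0.71 over the 12. The smallest p-values belonged to NOP56, a ribosomal RNA processing gene (-1.02 ± 0.07, adjusted p = 1.75e-07), ODC1, which makes polyamines (-1.19 ± 0.11, adjusted p = 1.49e-06), and NOP58 (-0.84 ± 0.09, adjusted p = 4.87e-06). Between the treated groups, 0 rose and 9 fell (median -0.50), beside 34.8% of all genes. Under TGF-β at day 20, 8 rose and 0 fell (median 0.36), beside 27.5% of all genes, led by CAD of pyrimidine synthesis (0.78 ± 0.10, adjusted p = 4.95e-05), FBL (0.73 ± 0.10, adjusted p = 0.000112) and NPM1 (0.61 ± 0.09, adjusted p = 0.000165). Only SRM was called in D1+ TGF-β vs D1 (0.46 ± 0.08, adjusted p = 0.00146), beside 13.4% of all genes. The count for the difference of responses was 3 (FBL and CDK4 higher, TFRC lower), beside 10.4% of all genes, and ranged from 0 to 6 on leaving out 1 library. The list was chosen with earlier results of these data known. Its counts are therefore no support, and they are given without a statement on MYC activity.

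**Figure D4:**
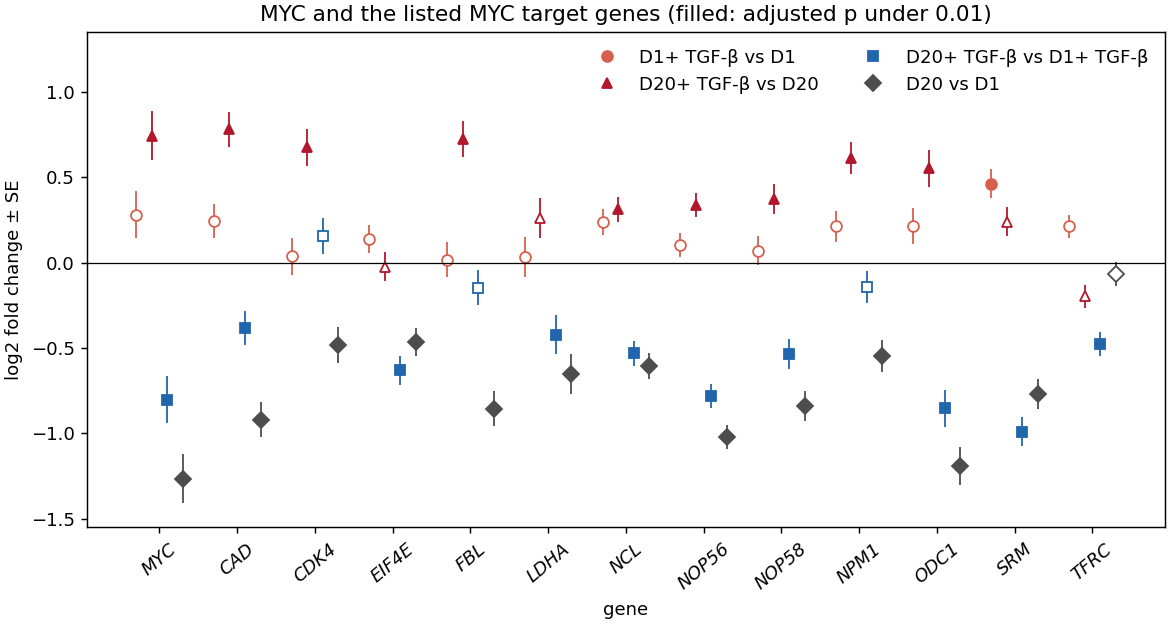
Log2 fold change with standard error (y axis) of MYC and of the 12 listed target genes in the 4 comparisons, with filled symbols for an adjusted p under 0.01. In D20 vs D1, MYC and 11 targets are filled and below zero, and in D20+ TGF-β vs D20, MYC and 8 targets are filled and above it.

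Of the 11 listed partners and antagonists of MYC, 8 were tested. Without TGF-β, in D20 vs D1, 3 rose and 1 fell, where 36.4% of all genes were called. The MAX-binding antagonists MXD4 (0.90 ± 0.07, adjusted p = 6.55e-07) and MXI1 (0.99 ± 0.11, adjusted p = 9.67e-06) and the glucose-responsive MLXIP (0.98 ± 0.13, adjusted p = 4.49e-05) were the ones that rose. Under TGF-β at day 20, MXD4 (-0.54 ± 0.07, adjusted p = 7.36e-05) and MLXIP (-0.89 ± 0.13, adjusted p = 0.000164) fell, and MXD1 rose (0.40 ± 0.10, adjusted p = 0.00792), beside 27.5% of all genes. The treated groups differed for 4 that rose and 1 that fell from day 1 to day 20, beside 34.8%. At day 1 only MXD1 was called (0.76 ± 0.11, adjusted p = 0.000211), beside 13.4%.

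The rest of the AP-1 family counted 12 listed genes, of which 7 were tested. Called were 1 of the 7 in D1+ TGF-β vs D1, 3 in D20+ TGF-β vs D20, 1 between the treated groups and 5 in D20 vs D1, where 13.4%, 27.5%, 34.8% and 36.4% of all genes were. JUND, the JUN homologue that is usually expressed without stimulation, was at 40.2 cpm per kb on average over the 12 flasks, beside 42.3 for JUN. It was measured at 78.4, 58.1 and 70.3 cpm in D1, 53.7, 61.3 and 58.9 in D1+ TGF-β, 66.3, 72.9 and 68.1 in D20, and 118, 119 and 108 in D20+ TGF-β. The treated D20 flasks were above all others, and JUND rose in D20+ TGF-β vs D20 (0.73 ± 0.10, adjusted p = 5.33e-05) and between the treated groups (0.98 ± 0.10, adjusted p = 7.31e-06). Its responses to TGF-β differed between the days by 0.97 ± 0.14 (adjusted p = 0.000358). MAFF, a small MAF protein without an activation domain, also rose in D20+ TGF-β vs D20 (0.68 ± 0.12, adjusted p = 0.000417), as did MAFG (0.38 ± 0.07, adjusted p = 0.00110), and the responses of MAFF differed by 0.88 ± 0.16 (adjusted p = 0.00222). JDP2, a repressor that dimerizes with JUN, was the one called in D1+ TGF-β vs D1 (0.90 ± 0.13, adjusted p = 0.000274). In D20 vs D1, JDP2 (0.70 ± 0.13) and ATF2 (0.36 ± 0.10) rose, and MAFF (-0.52 ± 0.12), MAFG (-0.30 ± 0.07) and MAFK (-0.72 ± 0.15) fell, with adjusted p from 0.000575 to 0.00760. ATF7 was called in none of these comparisons. BATF was at 0 counts in 11 of 12 flasks, and BATF2, BATF3 and MAF stayed at or below 5.65 cpm.

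Of the 30 other immediate early genes listed, 19 were tested. Under TGF-β at day 1, 4 rose and 3 fell, where 13.4% of all genes were called. CCN1, which encodes a matrix-associated growth regulator, rose (0.83 ± 0.11, adjusted p = 0.000106), and ZFP36, whose product destabilizes AU-rich mRNAs, fell (-1.48 ± 0.16, adjusted p = 2.50e-05). The p-values of ZFP36 in this paragraph are no support, because of how it met the expression minimum, as given below. At day 20 also 4 rose and 3 fell, beside 27.5% of all genes, with ZFP36 (-1.41 ± 0.15, adjusted p = 8.02e-06) lower and IER2 (0.62 ± 0.09, adjusted p = 0.000140) higher. Between D20 and D1, 1 rose and 7 fell, beside 36.4%, among them IER2 (-0.83 ± 0.09, adjusted p = 7.11e-06) and the MAP kinase phosphatase DUSP5 (-0.74 ± 0.11, adjusted p = 0.000114). Among treated cells, 2 rose and 7 fell with time, beside 34.8%. The median over the 19 was -0.01, -0.07, -0.07 and -0.40 in these comparisons in the order given.

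These counts include SIK1, a salt-inducible kinase gene, and HBEGF, an EGF receptor ligand gene, which met the 10 cpm minimum only through the 6 flasks where they were high, so that their part in the counts is no support. SIK1 was between 11.6 and 18.2 cpm in the 6 flasks with TGF-β and between 2.21 and 5.71 in the others, and HBEGF was between 10.8 and 21.3 cpm at day 1 and between 3.19 and 4.34 at day 20. ZFP36 reached the minimum in 8 libraries, which include all the untreated flasks, at 17.5 to 30.0 cpm. It lay between 6.52 and 8.62 cpm in D1+ TGF-β and at 11.4, 12.5 and 8.22 in D20+ TGF-β. Without the flasks where it was high ZFP36 would not have met the minimum, so its part in the counts and its p-values above are no support either. In the test with filterByExpr, the lower expression filter, the log2 fold change of SIK1 was 2.21 ± 0.23 in D1+ TGF-β vs D1 (adjusted p = 1.07e-05) and 1.82 ± 0.23 in D20+ TGF-β vs D20 (adjusted p = 2.88e-05). That of HBEGF in D20 vs D1 was -2.18 ± 0.20 (adjusted p = 1.05e-06) in the same test.

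Of 21 kinases and factors that act upstream, 19 were tested. Under TGF-β at day 20, 3 rose and 4 fell, where 27.5% of all genes were called. ELK3 (0.78 ± 0.08, adjusted p = 8.20e-06) and ELK1 (0.47 ± 0.08, adjusted p = 0.000464), ETS factors that bind beside serum response factor, rose, and the ERK1 gene MAPK3 fell (-0.64 ± 0.11, adjusted p = 0.000375). The gene of serum response factor itself, SRF, named after its values were seen, fell in the same comparison (-0.31 ± 0.08, adjusted p = 0.00910), from 54.7 to 44.1 cpm on average with no overlap of the flasks. At day 1, beside 13.4% of all genes, 2 rose and 1 fell. ELK3 (0.34 ± 0.08, adjusted p = 0.00734) and the JNK1 gene MAPK8 (0.59 ± 0.11, adjusted p = 0.00131) rose, and MAP2K3, a p38 activator, fell (-0.63 ± 0.11, adjusted p = 0.00108). Between D20 and D1, 0 rose and 4 fell, and between the treated groups 0 rose and 2 fell, beside 36.4% and 34.8% of all genes. These are RNA levels, and kinase activity was not measured.

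Of 12 genes known as AP-1 targets, 9 were tested. Under TGF-β at day 1, 2 rose and 0 fell (13.4% of all genes were called), among them the urokinase receptor gene PLAUR (0.64 ± 0.09, adjusted p = 0.000273). At day 20, 3 rose and 2 fell, beside 27.5%. The collagenase MMP1 was measured at 286, 223 and 182 cpm in D20 and at 1213, 935 and 1536 cpm in D20+ TGF-β (2.42 ± 0.23, adjusted p = 2.76e-06), PLAUR also rose (0.72 ± 0.10, adjusted p = 7.44e-05), and CD44 fell (-0.98 ± 0.08, adjusted p = 1.03e-06). In D20 vs D1, 1 rose (CD44) and 4 fell, and between the treated groups 1 rose (MMP1) and 3 fell, beside 36.4% and 34.8% of all genes. The members of this list are also known to be controlled by other factors, and their counts are given without a statement on AP-1 activity.

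**Figure D5:**
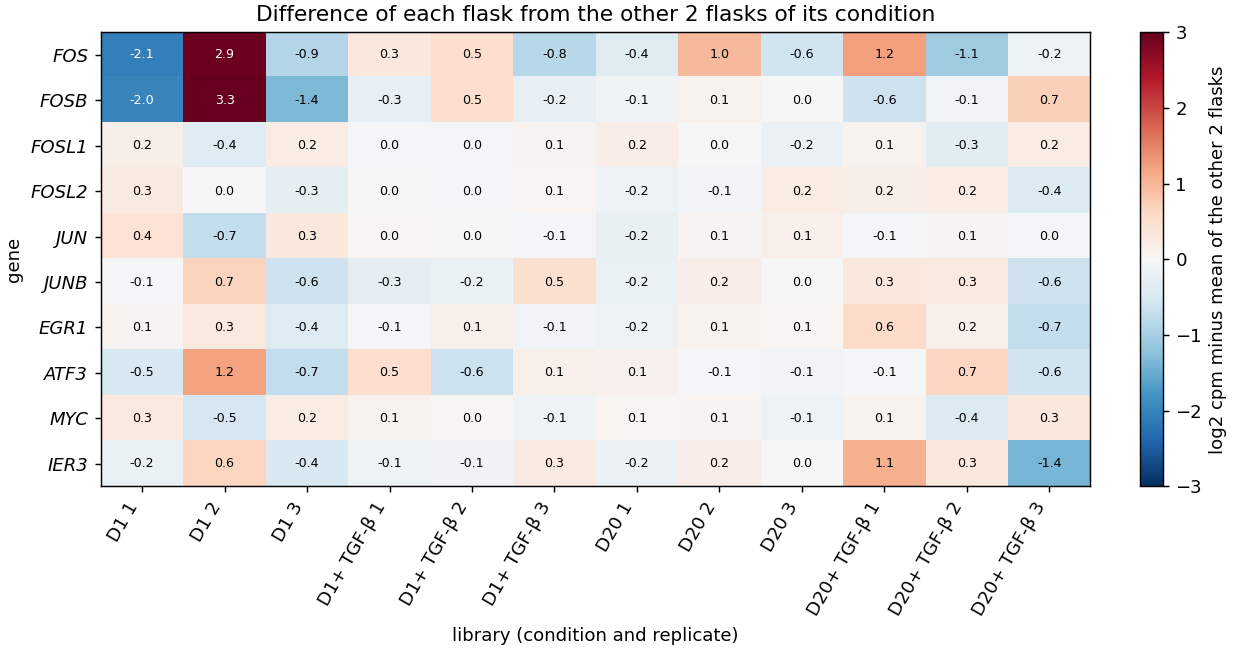
Log2 cpm of each gene in each flask minus the mean of the other 2 flasks of its condition (colour and printed value, 1 column per library). D1 replicate 2 is raised for FOS (2.9), FOSB (3.3) and ATF3 (1.2), and D20+ TGF-β replicate 3 is lowered for IER3 (-1.4).

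The differences between flasks of 1 condition involved a set of immediate early genes. D1 replicate 2 was more than 2-fold above both other flasks for FOS, FOSB and ATF3, and for 8 of the 30 other immediate early genes. These were the nuclear receptor genes NR4A1 (21.8 cpm, against 2.84 and 2.21), NR4A2 and NR4A3, as well as EGR2, EGR3, EGR4, ARC (43 counts, against 1 and 0) and CCN2, and they are named after their values were seen. So are the 2 of 12 AP-1 targets above both others there, MMP3 (105 cpm, against 18.5 and 19.1) and CXCL8 (7.84, against 3.01 and 3.49). FOS, FOSB, ATF3 and most of the 8 were too low for the set of 9490 genes, of which 55 were above both others. The share among genes that low was not counted, here or for D20+ TGF-β replicate 3. EGR2 rested on 9 counts against 0 and 1, EGR3 on 18 against 0 and 2, and EGR4 on 4 against 0 and 0. In the same flask JUN, at 0.598 times the mean of the other 2, FOSL1 at 0.768 times and MYC at 0.700 times were lower. In the other 11 libraries 0 of the 10 genes were more than 2-fold above both other flasks on the log2 cpm scale. On plain cpm FOS was, in D20 replicate 2 (0.683 cpm against 0.291 and 0.245) and in D20+ TGF-β replicate 1 (1.77 against 0.860 and 0.514). D20+ TGF-β replicate 3 was more than 2-fold below both other flasks for IER3, for 4 of the 30 other immediate early genes (EGR2, NR4A1, NR4A2 and NR4A3, and on plain cpm also DUSP2, at 0.191 against 0.514 and 0.400) and for 3 of the 12 AP-1 targets. The latter were the chemokine CXCL8, at 3.92 cpm against 198 and 71.0, the cytokine IL6, at 4.11 against 39.3 and 15.7, and the protease MMP3, at 5.64 against 48.1 and 28.0. In that flask MMP1 (1536 cpm) and MYC (36.8 cpm) were the highest of the group. D20+ TGF-β replicate 1 was in turn more than 2-fold above both other flasks for 2 of the 12 AP-1 targets, CXCL8 and IL6. A cause of these differences between sister flasks was not tested.

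The genes with the most similar profiles were found by the root mean square difference of log2 cpm over the 12 libraries, each gene centred on its own mean, for the tested genes called in at least 1 of the 4 comparisons. The nearest to FOSL1 were TUBB4B (0.13), the thymidylate synthase gene TYMS (0.16) and H2AFX (0.17), where the SD of FOSL1 itself over the 12 libraries was 0.69. The nearest to MYC were ODC1 (0.12), PAICS (0.12) and PFAS (0.13), all of them genes of polyamine or purine synthesis, with an SD of 0.63 for MYC. FOSL2 was nearest to SBNO2 (0.06), LTBP3 (0.08) and MAN2B2 (0.09), with an SD of 0.33. EGR1 was nearest to CEBPB (0.11), TMEM132A (0.15) and SH3PXD2B (0.16), with an SD of 0.35, and IER3 to GDF15 (0.23), NAB1 (0.31) and MSC (0.31), with an SD of 0.65. These distances are descriptions over libraries that share their conditions, and no test was made of them.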

How the data were processed

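RNA of 12 flasks of WI-38 cells was sequenced, each library on 4 lanes. The authors trimmed the reads with Trimmomatic, mapped them to hg19 with Rsubread and deposited unnormalized counts of 25702 genes in each lane. The counting program, annotation and use of strand are not given in the sources used here. The authors also deposited log2 cpm per lane for 9412 genes, which were used as an alternative and for gene names. The members and the gene lists were chosen with earlier results of these data known.

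Lanes were summed per library, and columns were assigned by their names. A gene was tested if 6 or more libraries reached 10 cpm, which 9490 genes did, 9394 of them in the authors' table. Tests used edgeR 4.0.16 (R 4.3.3), with TMM scaling, 1 mean per condition, quasi-likelihood F-tests and p-values adjusted by Benjamini-Hochberg, at a threshold of 0.01. edgeR estimated a common coefficient of variation of 9.35%, with 5.50 prior degrees of freedom. ATF3 was tested with filterByExpr. An exact permutation test of 3 against 3 flasks cannot go below p = 0.1, so none was used. Library totals of 8674488 to 18286197 counts set the precision, and the SDs and standard errors given are between flasks and contain the counting error. Log2 cpm had a prior count of 2. Alternatives were DESeq2 1.42.0, limma-voom (limma 3.58.1) on libraries or lanes, limma on the deposited log2 values, other scalings and filters, subsets of libraries, leaving out each library, a replicate block and a threshold of 0.05. Leaving out both libraries that stand apart was chosen after seeing the data. The code was tested on simulated counts. Beyond the 10 genes, the text names up to 3 called genes with the smallest p per list and comparison, the AP-1 family list, the 3 nearest profiles and the markers, and any other gene is said to be named after its values were seen. A few genes that meet this rule are not reported here. Positions are from GENCODE for GRCh37, and promoter sequences from RefSeq were placed on it by exact match.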

Additional observations from a re-analysis of the deposited data

Results flagged for a closer look

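The TGF-β response of FOSL1 differed between the days. Its log2 fold change was -0.40 in D1+ TGF-β vs D1 and 0.29 in D20+ TGF-β vs D20, neither of them called, and the difference of 0.69 passed the test of the difference itself (edgeR, adjusted p = 0.00842). The 3 treated flasks were below all untreated flasks at day 1, and at day 20 the flasks overlapped. The call was lost in 10 of 22 alternatives, 9 of which left out 1 library.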

How the results depend on the processing

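There were 902 repeats of the members' fold changes, with at most 23 alternative settings for each. Of these repeats, 796 kept direction and side of the threshold, 55 gained a call, 35 lost one and 16 changed sign, the last all for uncalled values. The calls of MYC (3 comparisons), IER3 and ATF3 in D20+ TGF-β vs D20, FOSL1 in both comparisons of the days and FOSL2 in D20 vs D1 held throughout.

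For the members, D1+ TGF-β vs D1 (0 called) gave 1 with DESeq2, no composition factor, no gene filter or a threshold of 0.05, and 2 with lanes as samples or without both libraries that stand apart (D1 replicate 2 and D20+ TGF-β replicate 3). Leaving out 1 library gave 0 to 1 here, 2 to 5 in D20+ TGF-β vs D20 (4 called), 2 to 5 between the treated groups (2 called) and 0 to 2 for the difference of responses (1 called). For the treated groups, lanes as samples and leaving out both libraries gave 7, and a threshold of 0.05 gave 4. In D20 vs D1 (3 called), lanes as samples gave 6 and no gene filter 5. The difference of responses gave 2 with DESeq2 or no composition factor, 5 with lanes as samples, 0 with the deposited log2 values, 3 with no gene filter or a threshold of 0.05, and 4 without both libraries. Lanes repeat 1 RNA and understate the error between flasks.

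Over all genes, lanes as samples gave 3895, 5154, 5724 and 5895 calls in the 4 comparisons in the order of the report and 3703 for the difference, against 1271, 2609, 3307, 3457 and 985. A threshold of 0.05 gave 2335 in D1+ TGF-β vs D1, 3924 in D20+ TGF-β vs D20 and 2040 for the difference. Without both libraries there were 2642 in D1+ TGF-β vs D1 and 2264 for the difference, and only the libraries of the comparison gave 802 in D1+ TGF-β vs D1. Leaving out 1 library gave 619 to 1875 in D1+ TGF-β vs D1, lowest without D1+ TGF-β replicate 2 and 735 without its replicate 1. It gave 1795 to 3288 in D20+ TGF-β vs D20, 2275 to 4018 between the treated groups, 2470 to 4003 in D20 vs D1 and 549 to 1731 for the difference. The difference was highest without D1 replicate 2, and was 549, 561, 623 and 632 without D1+ TGF-β replicate 2, D20 replicate 3, D20 replicate 2 and D1+ TGF-β replicate 1. Causes were not tested.

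The sign changed, always without a call, without D1 replicate 2 and without both libraries, respectively, for JUN in D1+ TGF-β vs D1 (-0.071 and -0.071, and up to 0.27 on leaving out another library) and D20 vs D1 (-0.10 and -0.10, up to 0.27), and in D1+ TGF-β vs D1 for JUNB (0.17 and 0.17, down to -0.28 on leaving out another) and EGR1 (0.00033 and 0.0040, down to -0.23). JUNB in D20+ TGF-β vs D20 turned to 0.030 with no composition factor, to 0.17 without both libraries, and to 0.0054, 0.050 and 0.16 without D1 replicate 2, D20 replicate 2 and D20+ TGF-β replicate 3, and was lowest at -0.12 without D20+ TGF-β replicate 1. For the difference of responses it turned to -0.17, -0.0026 and -0.023 without D1 replicate 2, D1+ TGF-β replicate 1 and D20+ TGF-β replicate 1, and reached 0.27 without D1 replicate 3. Without a composition factor the median of all genes in the difference of responses was 0.13.

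Deviations of libraries with the same replicate number had correlations from -0.22 to 0.03, and 0 libraries correlated best with their own number, so the numbers do not pair the samples. With the replicate number as a block, 0, 3, 3, 3 and 1 members and 1072, 2379, 3086, 3229 and 831 genes were called. FOSL2 in D20+ TGF-β vs D20 lost its call (adjusted p = 0.0142) and EGR1 between the treated groups gained one (adjusted p = 0.00954). FOS and FOSB lay at the limit of depth, with 1 to 87 counts per library.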
